A study of Mus musculus with 6 samples.

Results

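Hepatic stellate cells and the fibrous matrix they lay down were followed in the liver through 10 genes. These were the collagen genes *Col1a1*, *Col1a2*, *Col3a1* and *Col4a1*, the smooth muscle actin gene *Acta2*, the desmin gene *Des*, the receptor gene *Pdgfrb*, the growth factor gene *Tgfb1*, the cross-linking enzyme gene *Lox* and the protease inhibitor gene *Timp1*. They were picked by gene name, and all 10 were found among the 21528 genes listed in at least 1 library. RNA-Seq had been carried out on the liver of 3 WT and 3 TRIM24C52/55A mice, with 1 library for each animal. TRIM24 is an E3 ubiquitin ligase, and in the TRIM24C52/55A mice a pair of cysteines needed for that activity was changed to alanine by CRISPR/Cas9 knockin on a C57Bl/6J background (strain C57BL/6 in the labels). The knockin mice were homozygous, the WT mice were littermates from the same matings of heterozygotes, and both genotypes were 5 months old and had been on a high-fat diet (HFD) for 3 months, in which fat supplied 60% of the calories. The mutation is carried by every cell of the animal, so the comparison asks how this matrix programme stands in the liver of HFD-fed mice that carry the ligase mutation and does not separate stellate cells from hepatocytes. No group on a normal diet was analysed here, so no value below tells how far the diet itself moved a gene.

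Stellate cells lie between the hepatocytes and the sinusoidal endothelium, where in a healthy liver they store vitamin A as retinyl ester. After injury they can turn into contractile, matrix-forming myofibroblasts, a step driven by transforming growth factor β and platelet-derived growth factor. Myofibroblasts make type I and type III collagen, the fibrillar collagens of scar tissue, and express α-smooth muscle actin. LOX cross-links the new fibrils, and TIMP1 restrains the metalloproteinases that would remove them. Portal fibroblasts, vascular smooth muscle cells and mesothelial cells use many of the same genes, which therefore mark a kind of cell but not stellate cells alone.

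The values are FPKM, in which the fragments of a gene are divided by transcript length and by the size of the library, so that levels can be compared between genes on a per-length scale. Genotypes were compared with limma on log2(FPKM + 1) over the 12225 genes whose mean reached 0.5 FPKM, and every adjusted p below comes from that fit with Benjamini-Hochberg adjustment over all of them. Fold changes on this scale understate the change of genes with low FPKM. FPKM totalled between 644619 and 648221 in WT and between 673244 and 676791 in TRIM24C52/55A libraries, and such totals are not read depths. The steps between low values put 1 fragment per kilobase at roughly 0.0575 to 0.066 FPKM in each library, an estimate from blurred steps. *Ttr* and *Apoa1*, genes of secreted hepatocyte proteins, stood at 4480 FPKM or more in every library, as a check of the labelled tissue.

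TRIM24C52/55A replicate 2 stood apart from the other libraries. For those of the 10 genes that were tested, log2 fold changes are given with and without it. Calls that were gained or lost without it in the other lists are given too. The adipocyte genes *Adipoq*, *Plin1* and *Lep*, singled out after their values had been seen, had 4.55, 3.32 and 3.98 FPKM there and at most 0.127 FPKM elsewhere. Of the 11 adipocyte markers listed, 8 were highest in this library, and the summed level of the list was 91.2 FPKM against 29.9 to 45.1 FPKM in the others. That sum also holds genes with signal in every library, such as *Fabp4* and *Adrb3*. The summed level of 8 mesothelial markers was 5.14 FPKM there against 1.46 to 3.25 FPKM in the others, with 4 of the 8 highest there and most of the sum from *Gpm6a* (1.67 FPKM) and *Upk3b* (1.11 FPKM). *Msln*, *Wt1*, *Lrrn4* and *Bnc1* were not highest there, and *Msln* had 0.601 FPKM beside 0.565 to 1.02 FPKM in WT. Among the TRIM24C52/55A libraries, replicate 2 was also the highest for 9 of the 10 stellate cell and fibrosis genes, *Acta2* being the exception, and for 47.8% of all genes tested. Whether adipocyte or mesothelial RNA had a part in these values was not tested.

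Of the 10 genes, 8 passed the filter on low values and were tested, and none of the 8 reached an adjusted p under 0.05 (limma). Over all genes tested, 7.72% did so, with 744 genes (6.09%) lower and 200 genes (1.64%) higher in TRIM24C52/55A livers. The split depended on scaling, with 250 higher and 406 lower after median-of-ratios scaling and 255 higher and 378 lower after quantile normalization. By sign, 7 of the 8 genes were lower and 1 was higher in TRIM24C52/55A livers, where 65.5% of all genes were lower. Their median log2 fold change was -0.27, beside -0.08 for all genes. At an unadjusted p under 0.05, 4 of the 8 genes were lower in the limma fit, namely *Col1a1*, *Col1a2*, *Col3a1* and *Pdgfrb*, beside 19.0% of all genes. All TRIM24C52/55A libraries lay below all WT libraries for *Col1a2*, *Pdgfrb* and the untested *Timp1*. That is 2 of the 8 genes tested, near the 22.5% of all genes that were parted in this way. In RNA from whole liver, fewer cells of a type and less RNA from each cell cannot be told apart.

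**Figure D1:**
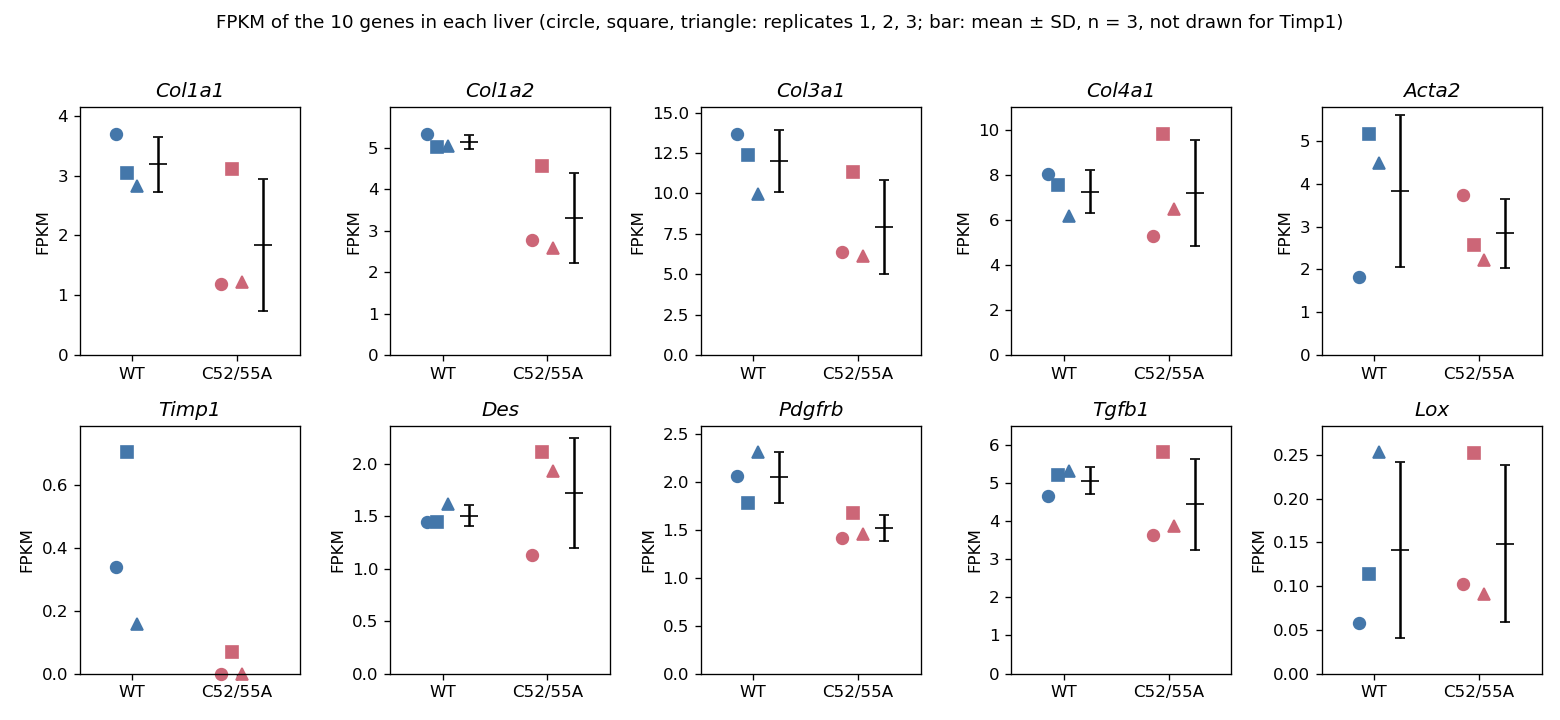
FPKM (y axis, linear, from 0) of each of the 10 genes in the 3 WT (blue) and 3 TRIM24C52/55A (red, C52/55A on the x axis) livers. Circles, squares and triangles are replicates 1, 2 and 3, and the black bars give the mean ± SD (n = 3), which is left out for *Timp1* because it was not listed in 2 libraries. TRIM24C52/55A replicate 2, the red square, lies at the level of the WT livers for *Col1a1* and *Col3a1*, while replicates 1 and 3 lie below every WT liver.

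Among the 8 genes tested, the 3 fibrillar collagen genes had the most negative log2 fold changes. *Col1a1*, which encodes the α1 chain of type I collagen (GRCm38 chromosome 11, 94936224 to 94953042, + strand), had 3.70, 3.04 and 2.82 FPKM in WT replicates 1 to 3. In TRIM24C52/55A replicates 1 to 3 it had 1.18, 3.11 and 1.22 FPKM. Replicate 2 thus fell within the WT range, and the other two TRIM24C52/55A livers had less than any WT liver. The means were 3.19 ± 0.454 and 1.83 ± 1.11 FPKM (SD, n = 3 each), and *Col1a1* had a log2 fold change of -0.62 (standard error 0.24, 95% interval -1.17 to -0.08, unadjusted p = 0.0295, adjusted p = 0.156 from limma). The groups overlapped (exact permutation test on FPKM, two-sided, p = 0.3), and 3 against 3 libraries cannot go below p = 0.1 in this test.

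*Col1a2*, the gene of the partner chain α2 (chromosome 6, 4504814 to 4541544, + strand), showed the tightest WT group of the collagens, with 5.34, 5.02 and 5.05 FPKM. The TRIM24C52/55A livers had 2.78, 4.55 and 2.58 FPKM, each below the lowest WT value. With means of 5.14 ± 0.176 and 3.30 ± 1.09 FPKM (SD, n = 3 each), the log2 fold change was -0.54 (standard error 0.16, 95% interval -0.92 to -0.16, unadjusted p = 0.0106, adjusted p = 0.0887 from limma). The exact permutation test gave its smallest possible two-sided p, 0.1.

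*Col3a1* encodes type III collagen, which runs with type I in the same fibrils (chromosome 1, 45311538 to 45349706, + strand), and it had the highest level per length of the 10 genes in WT livers. WT replicates 1 to 3 had 13.7, 12.4 and 9.94 FPKM, and TRIM24C52/55A replicates 1 to 3 had 6.40, 11.3 and 6.13 FPKM. Again replicates 1 and 3 of the knockin were below all WT livers and replicate 2 was among them. Means of 12.0 ± 1.92 and 7.93 ± 2.90 FPKM (SD, n = 3 each) came to a log2 fold change of -0.58 (standard error 0.21, 95% interval -1.07 to -0.09, unadjusted p = 0.0248, adjusted p = 0.142 from limma, exact permutation p = 0.2).

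The 3 fibrillar collagen genes kept step from liver to liver. Over the 6 libraries the Pearson correlation of log2(FPKM + 1) was 0.96 to 0.98 between each pair of them, a description that includes the genotype difference and the shared libraries. *Col3a1* was 2.57, 2.48 and 1.97 times *Col1a2* in WT and 2.30, 2.48 and 2.38 times in TRIM24C52/55A replicates 1 to 3 (exact permutation test of the ratios, two-sided, p = 1.0). *Col1a1* was 0.692, 0.606 and 0.558 times *Col1a2* in WT and 0.423, 0.683 and 0.472 times in TRIM24C52/55A livers (exact permutation p = 0.3). Per length, *Col1a1* was therefore below *Col1a2* in every liver, and the proportions of the fibrillar collagens overlapped between genotypes. These ratios were chosen after the values had been seen.

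Without TRIM24C52/55A replicate 2, *Col1a1*, *Col1a2* and *Col3a1* all passed the test. The log2 fold change was then -0.93 for *Col1a1* (standard error 0.12, 95% interval -1.22 to -0.64, adjusted p = 0.00874 from limma). For *Col1a2* it was -0.74 (standard error 0.09, 95% interval -0.96 to -0.52, adjusted p = 0.00805 from limma), and for *Col3a1* -0.83 (standard error 0.13, 95% interval -1.15 to -0.52, adjusted p = 0.0155 from limma). The means of TRIM24C52/55A replicates 1 and 3 were 1.20, 2.68 and 6.26 FPKM for the 3 genes. Among all genes tested 10.4% were called in this setting, 8.45% as lower, beside 3 of the 8 genes here. In the other 14 alternatives none of the 8 genes was called, so that the calls on the collagens rest on leaving out this 1 library. Over all 15 alternatives the adjusted p from limma ran from 0.00874 to 0.405 for *Col1a1*, from 0.00805 to 0.258 for *Col1a2* and from 0.0155 to 0.373 for *Col3a1*, always with the lower level in TRIM24C52/55A livers. Replicates 1 and 3 of the knockin were both below every WT liver for 5 of the 8 genes tested and for 36.2% of all genes.

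**Figure D2:**
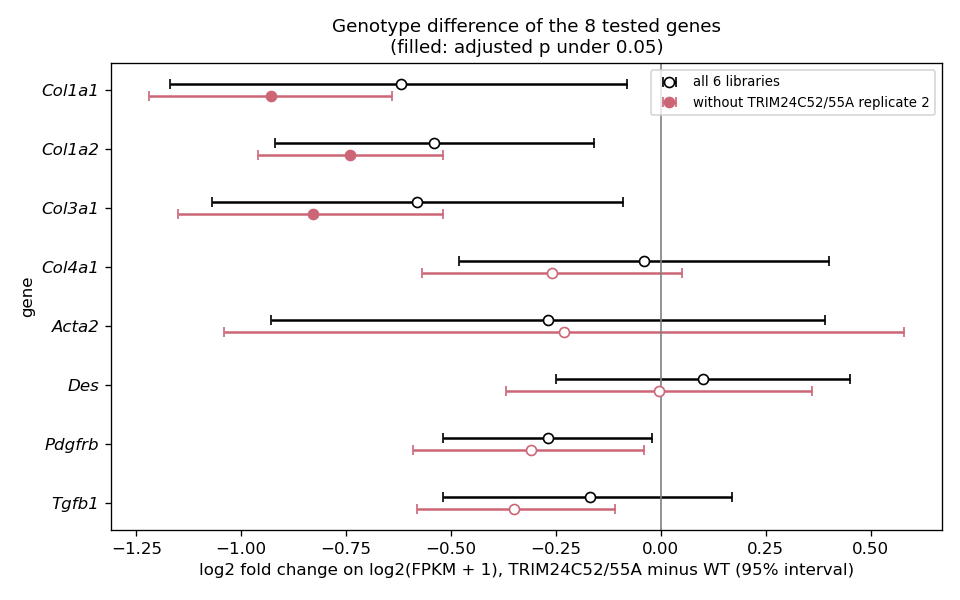
Log2 fold changes on log2(FPKM + 1), TRIM24C52/55A minus WT (x axis), with 95% intervals from limma for the 8 genes tested (y axis), from all 6 libraries (black) and without TRIM24C52/55A replicate 2 (red). Filled points have an adjusted p under 0.05, which is the case for *Col1a1* (-0.93), *Col1a2* (-0.74) and *Col3a1* (-0.83) without that replicate and for no gene with all libraries.

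Promoter sequence shows how these genes differ in the letters before their start sites. Windows from 250 bases before to 50 bases after the start were read from RefSeq (GRCm38.p6), where 7 of the 10 genes had one, and 3 motifs were searched on both strands. The CArG box, bound by serum response factor in smooth muscle genes, was searched as CC, 6 letters of A or T with at most 1 other base among them, and GG. It occurred in the windows of *Acta2* and *Col1a2* and in 9.98% of 32851 windows. TATAAA occurred in that of *Col3a1* and in 13.6% of windows, and CCAAT, the letters bound by NF-Y, in those of *Col1a2*, *Col4a1* and *Timp1* and in 37.4% of windows. Positions count from the RefSeq start, which for *Col1a2* lies inside the gene interval given above and not at its first base. The stretches below are given on the strand of the gene with the match in capitals. They show the 2 matches of *Acta2* (chr19:34255438-34255467 and chr19:34255388-34255417, - strand), a match of *Col1a2* (chr6:4505380-4505409, + strand) and the CCAAT on its own strand (chr6:4505497-4505525, + strand), beside which a further CCAAT lies on the opposite strand from position 1 to 5, and the TATAAA of *Col3a1* (chr1:45311409-45311438, + strand).
Acta2, first CArG match, from -84: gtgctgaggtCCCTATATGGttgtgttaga
Acta2, second CArG match, from -34: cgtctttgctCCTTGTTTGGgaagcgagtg
Col1a2, CArG match, from -228: taaagtgcttCCAAACTTGGcaagggcgag
Col1a2, CCAAT match, from -109: aaaagaatggaaCCAATttaagaagcccc
Col3a1, TATAAA match, from -117: actaatgcatgtTATAAAcatatgcatagg
Such a match describes letters and does not show that a factor binds. *Acta2* and *Col1a2* thus share a kind of motif, while over the 6 libraries their levels had a correlation of 0.16.

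*Col4a1*, which encodes a chain of the network-forming type IV collagen of basement membranes, had almost equal means in the genotypes. It had 8.03, 7.55 and 6.19 FPKM in WT and 5.30, 9.84 and 6.48 FPKM in TRIM24C52/55A livers. The highest and the lowest value were both from knockin livers. The means were 7.26 ± 0.954 and 7.21 ± 2.36 FPKM (SD, n = 3 each), and the log2 fold change was -0.04 (95% interval -0.48 to 0.40, adjusted p = 0.929 from limma), a value that turned to 0.05 with median-of-ratios scaling and to 0.04 with quantile normalization. Without TRIM24C52/55A replicate 2 it was -0.26 (adjusted p = 0.248 from limma). The files give the gene an interval on chromosome 8 from 11187755 to 11449287, 261.5 kb that also cover the neighbouring *Col4a2*, against 114.4 kb in the GENCODE annotation. *Col4a2*, its partner chain, had a log2 fold change of 0.02 (adjusted p = 0.963 from limma), which was -0.13 without TRIM24C52/55A replicate 2 (adjusted p = 0.478 from limma).

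*Acta2*, the usual marker of activated myofibroblasts and also a major gene of vascular smooth muscle (chromosome 19, 34241090 to 34255336, - strand), was the most variable of the tested genes within WT. WT replicates 1 to 3 had 1.81, 5.17 and 4.49 FPKM, a 2.86-fold range, and TRIM24C52/55A replicates 1 to 3 had 3.74, 2.56 and 2.22 FPKM. The lowest value of all was a WT liver, and the groups overlapped. Means of 3.82 ± 1.78 and 2.84 ± 0.800 FPKM (SD, n = 3 each) gave a log2 fold change of -0.27 (standard error 0.29, 95% interval -0.93 to 0.39, adjusted p = 0.632 from limma, exact permutation p = 0.4). The interval is wide enough to hold the values of *Col1a1*, *Col1a2* and *Col3a1*. Over the 15 alternatives the log2 fold change lay between -0.62 and -0.05, and it was -0.23 without TRIM24C52/55A replicate 2 (adjusted p = 0.706 from limma). *Acta2* did not rise and fall with *Col1a1*, *Col1a2* and *Col3a1*, with correlations of -0.01 to 0.16 over the 6 libraries.

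*Des* encodes the intermediate filament desmin, found in stellate cells and in muscle (chromosome 1, 75360329 to 75375012 in the files, + strand), and it was the 1 gene of the 8 with a higher mean in the knockin. It had 1.45, 1.45 and 1.62 FPKM in WT livers and 1.13, 2.11 and 1.93 FPKM in TRIM24C52/55A livers. The WT livers lay close together and within the range of the knockin livers. Its log2 fold change of 0.10 (95% interval -0.25 to 0.45, adjusted p = 0.744 from limma) came to -0.0035 without TRIM24C52/55A replicate 2. An antisense gene, Gm15179, overlaps it, and whether strand was used in the quantification is not given in the sources used here.

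*Pdgfrb*, the receptor through which platelet-derived growth factor drives stellate cells (chromosome 18, 61045150 to 61085061, + strand), parted the genotypes in every library. It had 2.06, 1.78 and 2.31 FPKM in WT and 1.42, 1.68 and 1.46 FPKM in TRIM24C52/55A livers. All 3 knockin livers lay below the lowest WT liver, replicate 2 by the smallest margin. With means of 2.05 ± 0.264 and 1.52 ± 0.136 FPKM (SD, n = 3 each), the log2 fold change was -0.27 (standard error 0.11, 95% interval -0.52 to -0.02, unadjusted p = 0.0376, adjusted p = 0.180 from limma). It was -0.31 without replicate 2 (adjusted p = 0.132 from limma), and it was called in none of the 15 alternatives (adjusted p 0.102 to 0.455 from limma). The exact permutation test gave the smallest p it can, 0.1.

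*Tgfb1*, the growth factor that induces collagen genes in stellate cells and is made by many liver cell types (chromosome 7, 25687002 to 25705077, + strand), had 4.65, 5.21 and 5.30 FPKM in WT. The TRIM24C52/55A livers had 3.64, 5.80 and 3.87 FPKM. Replicate 2 of the knockin was the highest of all libraries, and replicates 1 and 3 were the lowest. The log2 fold change was -0.17 with all libraries (95% interval -0.52 to 0.17, adjusted p = 0.546 from limma) and -0.35 without replicate 2 (adjusted p = 0.0713 from limma).

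*Timp1* and *Lox* were too low for the test. *Timp1*, an inhibitor of metalloproteinases that is induced strongly in scarring liver, had 0.339, 0.705 and 0.158 FPKM in WT livers. Among TRIM24C52/55A livers it had 0.0689 FPKM in replicate 2 and was not listed in replicates 1 and 3. These values amount to roughly 5, 10 and 2 fragments in WT and to about 1 fragment in knockin replicate 2, so that the groups did not overlap but rest on few fragments (exact permutation test, two-sided, p = 0.1). Without the filter on low values its limma adjusted p was 0.179. The files give *Timp1* an interval of 123.2 kb on chromosome X, from 20797814 to 20921004, which also covers *Araf* and *Syn1*, while the annotated gene of 4.6 kb (20870166 to 20874735) lies inside *Syn1* on the opposite strand.

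*Lox*, the lysyl oxidase that cross-links collagen and elastin (chromosome 18, 52516069 to 52529867, - strand), had 0.0573, 0.114 and 0.253 FPKM in WT and 0.102, 0.252 and 0.0914 FPKM in TRIM24C52/55A livers. These amount to roughly 4, 9 and 21 fragments in WT and 7, 21 and 7 fragments in the knockin, and the groups overlapped (exact permutation p = 1.0). An annotated antisense gene, AC161119.1, overlaps it.

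In WT livers the order of levels per length ran from *Col3a1* (12.0 FPKM) over *Col4a1* (7.26), *Col1a2* (5.14), *Tgfb1* (5.05), *Acta2* (3.82), *Col1a1* (3.19), *Pdgfrb* (2.05) and *Des* (1.51 FPKM) to *Timp1* and *Lox*. The WT ranges of *Col1a2*, *Tgfb1* and *Acta2* overlapped, as did those of *Acta2* and *Col1a1* and those of *Timp1* and *Lox*, so that the order among these neighbours is not settled. The other neighbours were separate in all WT livers. Summed over the 10 genes, the level was 41.2, 42.5 and 38.1 FPKM in WT and 25.7, 41.2 and 26.0 FPKM in TRIM24C52/55A livers. Replicates 1 and 3 of the knockin again stood below all WT livers and replicate 2 did not.

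The genes whose pattern over the 6 libraries was most like the mean of the 8 tested genes were *Ctsa* (Pearson correlation 0.993), *Fuom* (0.992), *Capg* (0.992), *Mesdc1* (0.992) and *Kars* (0.989). *Ctsa* encodes a lysosomal carboxypeptidase, *Capg* an actin-capping protein and *Kars* a lysyl-tRNA synthetase. As many as 496 of the 12217 genes compared had a correlation over 0.9, so this likeness is common among 6 libraries.

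Other genes that make, modify or degrade matrix were examined as lists, each given by counts from the same limma fit. Of 12 other collagen genes tested, 6 were lower and 6 higher, with a median log2 fold change of -0.0029, and 1 was called. Without TRIM24C52/55A replicate 2 the median was -0.15, and a second gene, *Col6a2* of the microfibrillar type VI collagen, was called lower. It had 2.35, 1.94 and 1.65 FPKM in WT and 1.11, 2.95 and 1.02 FPKM in TRIM24C52/55A livers, and its log2 fold change went from -0.21 (adjusted p = 0.666 from limma) to -0.52 (adjusted p = 0.0496 from limma) without that library. *Col27a1*, a fibrillar collagen gene best known from cartilage, rose from 4.07, 3.18 and 3.56 FPKM in WT to 5.97, 7.64 and 5.86 FPKM in TRIM24C52/55A livers (log2 fold change 0.70, standard error 0.13, adjusted p = 0.0165 from limma). All knockin livers exceeded all WT livers, and the call held in 10 of 15 alternatives (adjusted p 0.00978 to 0.0674 from limma). Among them it was lost without WT replicate 2 (0.0575), WT replicate 3 (0.0674) or TRIM24C52/55A replicate 1 (0.0510). *Col18a1*, the collagen gene of highest level in the list, and *Col14a1* had log2 fold changes of 0.01 and -0.16 (adjusted p = 0.970 and 0.486 from limma) with overlapping groups. The fibrillar collagen genes *Col5a1*, *Col5a2* and *Col5a3* had log2 fold changes of -0.04, 0.11 and -0.02, also with overlapping groups. Without TRIM24C52/55A replicate 2 their values were -0.18, 0.15 and -0.11. Among 23 other matrix protein genes tested, 14 were lower, 9 were higher and none was called, with a median of -0.05 that was -0.20 without TRIM24C52/55A replicate 2. The most abundant of these were vitronectin (*Vtn*, log2 fold change 0.19, adjusted p = 0.283 from limma) and fibronectin (*Fn1*, -0.05, adjusted p = 0.783 from limma), the latter a value whose sign turned with median-of-ratios scaling and quantile normalization.

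Enzymes that process and cross-link collagen were lower in 14 of 19 genes tested, with a median of -0.15 and 1 call. *P4hb*, a subunit of prolyl 4-hydroxylase and the general disulfide isomerase of the endoplasmic reticulum, fell from 449, 468 and 454 FPKM to 359, 355 and 395 FPKM (log2 fold change -0.31, standard error 0.07, adjusted p = 0.0454 from limma). Its groups did not overlap, but the call held in 5 of 15 alternatives (adjusted p 0.0178 to 0.229 from limma), and it was lost without any 1 library other than TRIM24C52/55A replicate 3 (0.0676 to 0.152). With median-of-ratios scaling the log2 fold change was -0.20 (adjusted p = 0.194 from limma), and with quantile normalization it was -0.19 (adjusted p = 0.229 from limma). Transglutaminase 2 (*Tgm2*), which had 37.7, 34.0 and 41.8 FPKM in WT and 28.7, 32.7 and 28.9 FPKM in TRIM24C52/55A livers, did not pass (log2 fold change -0.32, adjusted p = 0.0953 from limma), except with TPM (adjusted p = 0.0440 from limma). *Bmp1*, the protease that trims the ends of procollagen, had a log2 fold change of -0.22 (adjusted p = 0.137 from limma) without overlap between the groups. Metalloproteinases and their inhibitors were lower in 8 of 9 genes tested, and none was called, with a median of -0.11 that was -0.26 without TRIM24C52/55A replicate 2. The most abundant were *Mmp19* (log2 fold change -0.31, adjusted p = 0.224 from limma) and *Mmp14*, a membrane-bound collagenase (-0.11, adjusted p = 0.700 from limma). The other inhibitors *Timp2* and *Timp3*, named beside *Timp1* after their values had been seen, had log2 fold changes of -0.09 and -0.07 and overlapping groups. Without TRIM24C52/55A replicate 2 their values were -0.26 and -0.14, and that of *Mmp14* was -0.27. The values furthest from 0 in the list, also picked after they had been seen, were those of the macrophage elastase gene *Mmp12* (-0.87, adjusted p = 0.0520 from limma), of *Mmp15* (0.57, adjusted p = 0.104) and of *Adamts1* (-0.44, adjusted p = 0.122). *Mmp12* had 1.91, 0.619 and 1.79 FPKM in WT and 0.199, 0.458 and 0.234 FPKM in TRIM24C52/55A livers. The groups of all 3 genes were parted, and *Mmp12* was called in 3 of 15 alternatives (adjusted p 0.00796 to 0.181 from limma), the other two in none.

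**Figure D3:**
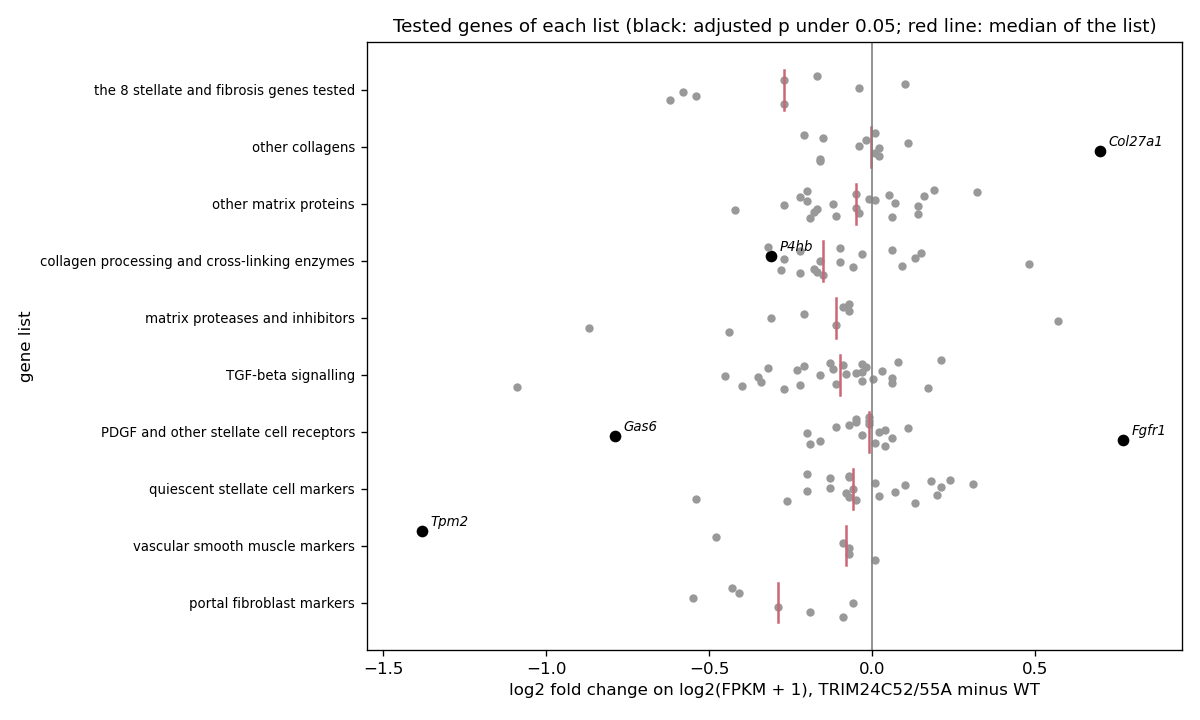
Log2 fold change on log2(FPKM + 1), TRIM24C52/55A minus WT (x axis), of each tested gene in the 10 lists of matrix, signalling and mesenchymal cell genes (y axis). Black points have an adjusted p under 0.05 (limma) and are named, and red lines mark the medians. The 8 stellate cell and fibrosis genes have a median of -0.27 with no call, and the 5 genes called in the other lists lie on both sides of 0.

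Among 28 genes of TGF-β signalling tested, *Tgfb1* left aside, 21 were lower, 7 were higher and none was called, with a median of -0.10 that was -0.20 without TRIM24C52/55A replicate 2. The most abundant, the protease *Furin* that cleaves the TGF-β precursor and the co-receptor *Eng*, had log2 fold changes of -0.11 and -0.22 (adjusted p = 0.680 and 0.237 from limma). Without TRIM24C52/55A replicate 2 these were -0.26 and -0.28 (adjusted p = 0.0666 and 0.112 from limma). For the receptor genes *Tgfbr1* and *Tgfbr2* the values were -0.03 and -0.13, and 0.03 and -0.24 without TRIM24C52/55A replicate 2. *Ctgf*, a matrix-bound target of TGF-β that was chosen after its values had been seen, had 8.70, 7.11 and 5.30 FPKM in WT and 1.43, 5.94 and 2.05 FPKM in TRIM24C52/55A livers. Knockin replicate 2 again lay within the WT range, and the log2 fold change of -1.09 (adjusted p = 0.107 from limma) became -1.54 without it (adjusted p = 0.00805 from limma). In that setting *Itgb5*, *Smurf1* and *Ltbp4* were also called lower, with log2 fold changes of -0.40, -0.41 and -0.59.

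Of 19 genes tested for platelet-derived growth factors and for other receptors and ligands that act on stellate cells, 12 were lower and 7 higher, and 2 were called in opposite directions. *Fgfr1*, a fibroblast growth factor receptor, rose from 1.74, 1.27 and 1.01 FPKM in WT to 3.09, 2.88 and 2.86 FPKM (log2 fold change 0.77, standard error 0.13, adjusted p = 0.0136 from limma). *Gas6*, a ligand of the receptor tyrosine kinase AXL, fell from 31.4, 22.2 and 28.2 FPKM to 14.9, 12.8 and 18.2 FPKM (log2 fold change -0.79, standard error 0.16, adjusted p = 0.0219 from limma). Both parted the genotypes in all libraries, and their calls held in 12 and 10 of 15 alternatives. *Fgfr1* lost its call without WT replicate 3 (adjusted p = 0.0521 from limma) or TRIM24C52/55A replicate 1 (0.0616). *Gas6* lost its call without WT replicate 1 (0.0788), WT replicate 3 (0.0876) or TRIM24C52/55A replicate 1 (0.0842). *Pdgfra*, the sister receptor of *Pdgfrb*, had a log2 fold change of -0.01 (adjusted p = 0.982 from limma).

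Markers of the quiescent stellate cell had a median close to that of all genes. Of 22 tested, 12 were lower and 10 higher with a median of -0.06, and none was called. Without TRIM24C52/55A replicate 2 the median was -0.02, beside -0.1 for all genes. The sum over all 23 listed was 312 to 322 FPKM in WT and 312 to 341 FPKM in TRIM24C52/55A livers, a sum led by the chemokine gene *Cxcl12* (log2 fold change 0.07, adjusted p = 0.676 from limma) and by *Steap4* (-0.07, adjusted p = 0.795 from limma). *Lrat*, the enzyme that stores vitamin A and a defining gene of stellate cells, had 2.76, 3.22 and 3.51 FPKM in WT and 3.63, 4.53 and 4.29 FPKM in TRIM24C52/55A livers. *Reln*, another stellate cell gene, had 14.6, 11.1 and 13.1 FPKM in WT and 14.6, 16.4 and 15.3 FPKM in knockin livers. Neither passed the test (log2 fold change 0.31, adjusted p = 0.151, and 0.24, adjusted p = 0.218, from limma), and both were named after their values had been seen. Among the other genes of the list the groups were parted for *Hgf*, higher in the knockin (log2 fold change 0.21, adjusted p = 0.343 from limma), and for *Ank3*, lower in the knockin. *Ank3*, which encodes an ankyrin of the membrane skeleton, had 3.05, 3.07 and 3.22 FPKM in WT and 1.58, 1.35 and 2.69 FPKM in TRIM24C52/55A livers (log2 fold change -0.54, adjusted p = 0.0895 from limma), and it was called in 1 of 15 alternatives. *Adamtsl2*, *Cygb* and *Tcf21* had log2 fold changes of -0.26, -0.20 and -0.20 with overlapping groups. Set against *Reln* in the same library, 4 of the 8 tested genes (*Col1a1*, *Col1a2*, *Col3a1* and *Pdgfrb*) were lower in the knockin without overlap, as were 46.0% of all genes. Set against *Lrat*, 5 of the 8 were, and 60.2% of all genes, so that neither ratio tells the 8 genes from the rest.

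Other cells that use the matrix genes were followed through their markers. All 7 portal fibroblast markers tested were lower, with a median of -0.29 and no call, while *Gli1*, *Pi16* and *Clec3b*, which were too low for the test, had higher means in the knockin. The sum over all 10 markers was 36.1 to 39.3 FPKM in WT and 28.0 to 33.0 FPKM in TRIM24C52/55A livers, without overlap. *Dpp4*, a peptidase gene, made up most of that sum, with 24.3, 22.8 and 24.5 FPKM in WT and 19.7, 19.8 and 23.0 FPKM in TRIM24C52/55A livers, and its own groups overlapped (log2 fold change -0.19, adjusted p = 0.238 from limma). Without knockin replicate 2, *Mfap4* and *Gas1* were called lower, with log2 fold changes of -0.56 and -0.85 against -0.41 and -0.55 with all libraries. Of 6 vascular smooth muscle markers tested, 5 were lower and 1 was called. *Tpm2*, a tropomyosin of contractile cells, fell from 8.60, 10.5 and 14.8 FPKM to 2.89, 4.74 and 3.44 FPKM (log2 fold change -1.38, standard error 0.20, adjusted p = 0.00833 from limma) and was called in each of the 15 alternatives. *Mylk*, of the highest mean over all 6 libraries in that list but below *Tpm2* in the mean of WT, had a log2 fold change of -0.07 (adjusted p = 0.696 from limma), of either sign over the scalings. *Tagln*, the other defining gene of smooth muscle and myofibroblasts, had 6.92, 7.97 and 6.63 FPKM in WT and 4.48, 6.69 and 3.76 FPKM in knockin livers (log2 fold change -0.48, adjusted p = 0.138 from limma, and 0.0181 without replicate 2). The part of these cell types in the values of *Acta2* and the collagens was not tested.

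Kupffer cells and other macrophages, a source of TGF-β, were followed through 14 markers tested, of which all were lower with a median of -0.31 and none was called. The sum over all 16 listed was 319 to 363 FPKM in WT, 239 and 243 FPKM in TRIM24C52/55A replicates 1 and 3, and 348 FPKM in replicate 2. As for *Col1a1* and *Col3a1*, replicates 1 and 3 of the knockin lay below all WT livers and replicate 2 lay among them, while the order of the WT livers differed. *Cd5l* and *Clec4f*, the most abundant, had log2 fold changes of -0.38 and -0.24 (adjusted p = 0.149 and 0.258 from limma). Without replicate 2, *Cd68*, *C1qa*, *C1qb*, *C1qc* and *Csf1r* were called lower, and the median of the list was -0.50. Of 12 sinusoidal endothelial markers tested, 10 were lower and only *Lyve1*, a hyaluronan receptor, was called (log2 fold change -1.26, adjusted p = 0.0281 from limma), while *Clec4g* and *Fcgr2b* had -0.04 and 0.01, each of either sign over the alternatives. *Lyve1* lost its call without any 1 WT library (adjusted p 0.0605 to 0.0863 from limma) and without TRIM24C52/55A replicate 1 (0.0640). The macrophage and endothelial share in *Tgfb1* and *Col4a1* was not tested.

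**Figure D4:**
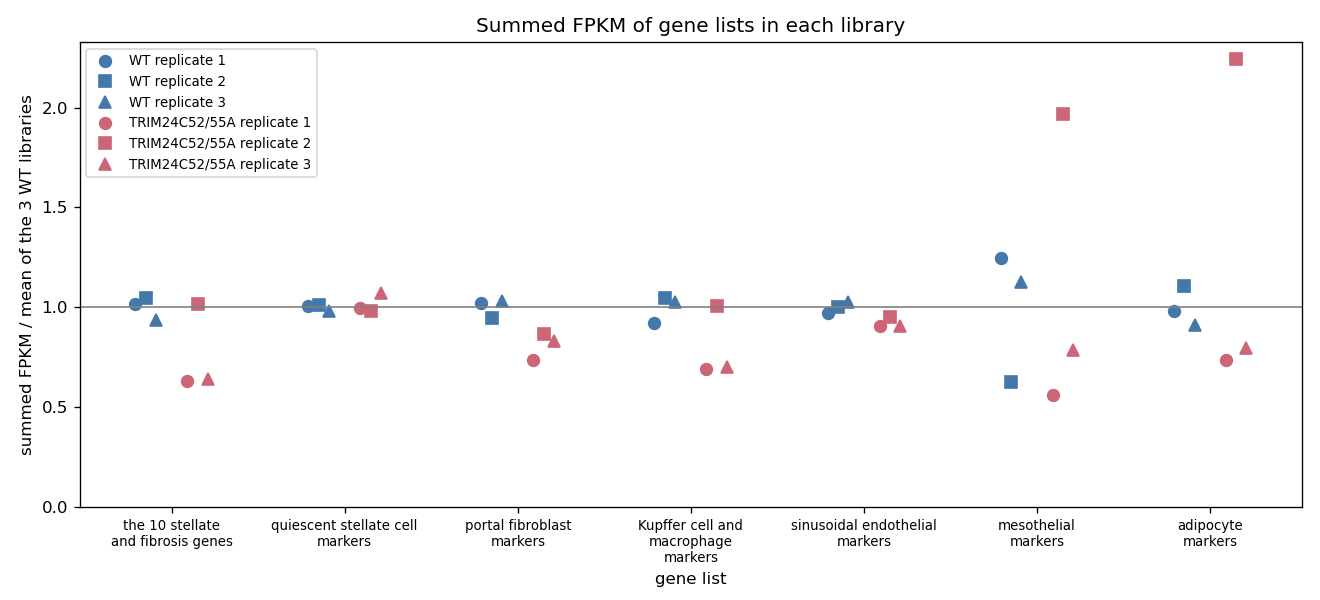
Summed FPKM of each gene list in each library, divided by the mean of the 3 WT libraries (y axis, linear, from 0), for the 10 stellate cell and fibrosis genes and 6 lists of cell type markers (x axis). Blue is WT, red is TRIM24C52/55A, and circles, squares and triangles are replicates 1, 2 and 3. The red square of replicate 2 stands with WT for the fibrosis genes (41.2 FPKM) and macrophage markers (348 FPKM). It stands far above all libraries for adipocyte markers (91.2 FPKM). The sum of quiescent stellate cell markers (312 to 341 FPKM) stays near 1 in all libraries. That sum is led by *Cxcl12* and *Steap4* and says little of the lower genes in the list.

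The remaining cell type lists are given for completeness. Of 9 adipocyte markers tested, the β3-adrenergic receptor gene *Adrb3* was called higher (log2 fold change 1.86, adjusted p = 0.000716 from limma) and *Plin4* lower (-1.26, adjusted p = 0.0142 from limma), each without overlap between the genotypes. *Adrb3* had 2.04, 2.17 and 1.99 FPKM in WT and 7.81, 12.4 and 10.6 FPKM in TRIM24C52/55A livers. Both genes thus had signal in libraries where *Adipoq*, *Plin1* and *Lep* had at most 0.127 FPKM, and the cells it came from were not tested. *Plin4* lost its call without WT replicate 1 (0.0571), WT replicate 3 (0.0638) or TRIM24C52/55A replicate 1 (0.0640). Without knockin replicate 2, *Cfd* and *Fabp4* were called lower as well, with log2 fold changes of -2.05 and -0.96 (adjusted p = 0.0212 and 0.0111 from limma) against -1.61 and -0.14 with all libraries (adjusted p = 0.0617 and 0.919 from limma). Of 3 lymphocyte markers tested, *Cd4* was called higher (1.11, adjusted p = 0.00108 from limma), and *Ptprc* and *Nkg7* both had -0.11. The T cell genes *Cd3e*, *Cd3d* and *Cd8a* were too low for the test, and their groups overlapped. Their means were 0.596, 0.192 and 0.128 FPKM in WT and 0.238, 0.376 and 0.151 FPKM in TRIM24C52/55A livers. None of 3 mesothelial, 5 cholangiocyte and 7 hepatocyte markers tested was called. The log2 fold changes were 0.26 for *Gpm6a* and -0.07 for *Upk3b* among the mesothelial and 0.54 for *Sox9* and -0.11 for *Tspan8* among the cholangiocyte markers, all with overlapping groups.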

How the data were processed

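For each of the 6 livers the authors deposited 1 table of FPKM per gene. The submitters' processing notes name the build GRCm38 and, among others, the tools bcl2fastq and Salmon 0.14.0, and which of them made the FPKM is not given in the sources used here. A gene not listed for a library was taken as 0. FPKM hold no counts, so no count model was fitted. Values were tested as log2(FPKM + 1), pseudocount 1, in genes whose mean reached 0.5 FPKM. The fit used limma 3.58.1 under R 4.3.3 (lmFit, then eBayes with a mean-variance trend), Benjamini-Hochberg adjustment over all 12225 genes and a threshold of 0.05. Single genes also had an exact two-sided permutation test of mean FPKM. Libraries were grouped by the genotype of their labels. Separate animals were the replicates, and no pair of libraries held identical values. Tables and plots were made with pandas 2.3.3, numpy 2.4.6 and matplotlib 3.10.9 under Python 3.11.15. Start coordinates in the tables count from 0 and were raised by 1; gene models are GENCODE M21 and promoters RefSeq. *Col1a1*, *Lox* and *Pdgfrb* had no promoter entry.

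The 10 genes and the 16 other lists were chosen with earlier results of these data known. Named are all 10 genes; from each other list the called genes, at most 5 by adjusted p, and where fewer than 2 were called the 2 of highest mean FPKM; and the 5 genes most like the mean of the 8 tested by Pearson correlation. Genes outside this rule are *Adipoq*, *Plin1*, *Lep*, *Ctgf*, *Lrat*, *Reln*, *Hgf*, *Ank3*, *Adamtsl2*, *Cygb*, *Tcf21*, *Timp2*, *Timp3*, *Mmp12*, *Mmp15*, *Adamts1*, *Gli1*, *Pi16*, *Clec3b*, *Tgfbr1*, *Tgfbr2*, *Pdgfra*, *Col4a2*, *Col5a1*, *Col5a2*, *Col5a3*, *Msln*, *Wt1*, *Lrrn4*, *Bnc1*, *Cd3e*, *Cd3d*, *Cd8a* and those called without TRIM24C52/55A replicate 2, all picked after their values were seen. *Alb* and *Tf* of the hepatocyte list were not analysed here, and 1 gene of the TGF-β signalling list is not reported here by name. The 15 alternatives were a pseudocount of 0.1, no filter, a filter at 1 FPKM, rescaling to TPM, quantile or median-of-ratios scaling, an untrended and a robust variance model, a replicate block and each library left out. On simulated data of 12225 genes the fit recovered 99.0% of 99 genes set to change 4-fold and 85.1% of 101 set to change 2-fold, with 3 false calls. The changed genes were drawn from those with a WT mean of log2(FPKM + 1) above 2, so genes as low as *Des* and *Pdgfrb* were left out. The change was set on that log2 scale with independent noise, and no library that stands apart was simulated. These shares therefore do not tell how often a change in the 8 genes would be found.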

Additional observations from a re-analysis of the deposited data

How the results depend on the processing

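None of the 8 genes tested was called in 14 of 15 alternatives, and 3 were called without TRIM24C52/55A replicate 2, so the count over single replicates left out ran from 0 to 3. The cause was not tested. *Col4a1* changed sign with median-of-ratios scaling (0.05), with quantile normalization (0.04) and with single replicates left out (-0.26 to 0.13), and *Des* without TRIM24C52/55A replicate 2 (range with single replicates left out -0.0035 to 0.27). The other 6 kept their sign throughout. Of 12225 genes 944 were called, 200 higher and 744 lower. Without the filter 347 were called, 95 higher and 252 lower, among more genes tested. TPM gave 1555, 1358 of them lower, while 406 were lower with median-of-ratios scaling and 378 with quantile normalization, where the median of all genes moved from -0.08 to 0.01. With single replicates left out the count ran from 296 to 1272 (313, 480 and 301 without WT replicates 1 to 3, and 296, 1272 and 792 without TRIM24C52/55A replicates 1 to 3), the higher genes from 88 to 239 and the lower ones from 202 to 1033. In the 16 other lists 9 of 198 genes were called, 3 of 247 without the filter, 14 with TPM and 3 to 24 with single replicates left out.

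Same-numbered libraries of the genotypes did not deviate together from their group means, with correlations of -0.123, -0.099 and 0.003. Whether same-numbered animals were paired in some way is not given in the labels, and these correlations cannot tell. With the replicate block 578 genes were called, 422 of them lower, and 0 of the 8 genes. *Col1a2* then had an adjusted p of 0.125 (limma).

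Of the genes that the naming rule took from the other lists, these changed sign on the log2 scale. With median-of-ratios scaling and quantile normalization the values were 0.06 and 0.09 for *Fn1*, 0.03 and 0.09 for *Steap4*, 0.03 and 0.03 for *Mylk* and 0.06 and 0.11 for *Clec4g*, and with quantile normalization alone 0.04 for *Furin* and -0.08 for *Apoa1*. TPM gave -0.05 for *Col18a1* and for *Fcgr2b*. With single replicates left out the values spanned 0 from -0.09 to 0.06 for *Col18a1*, -0.19 to 0.02 for *Steap4*, -0.0037 to 0.40 for *Gpm6a*, -0.27 to 0.05 for *Upk3b*, -0.10 to 0.05 for *Clec4g*, -0.06 to 0.05 for *Fcgr2b*, -0.27 to 0.05 for *Tspan8* and -0.21 to 0.04 for *Nkg7*.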
